A study of Mus musculus with 360 samples.

Results

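Arsa, Hsd3b3, Homer2, Net1, Clpx, Rbm12b1 and Chka are 7 genes whose liver RNA differed from unexposed mice at 10 ppm 1,2-dichlorobenzene (1,2-DCB), the lowest concentration of that compound at which any probe passed the test in liver. All rows bearing the name of one of these genes were taken from the probe count table, which gave 1 probe per gene and 7 of 3154 probes, or 7 of 2759 gene names. The genes were chosen on measured values. All 7 lie among the 10 probes with the smallest p at 10 ppm in liver, and all 7 lie among the 39 probes that passed both there and in the liver difference between 1,2-DCB and its isomer 1,4-dichlorobenzene (1,4-DCB) at 10 ppm. Their liver values under 1,2-DCB against unexposed animals, and that isomer difference, are therefore given as a description with no test.

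The animals were female B6D2F1/Crl (BDF-1) mice, a cross of a C57BL/6 and a DBA/2 parent, aged 9 weeks. One set received 1,2-DCB at 0, 1, 10, 30, 100 or 250 ppm and the other 1,4-DCB at 0, 1, 10, 50, 150 or 400 ppm, and the isomers differ in where the second chlorine sits on the benzene ring. Tissues taken on study day 5 were the liver (left lobe), kidney, lung, heart and ovary, measured with the TempO-Seq S1500+ panel, in which pairs of detector oligonucleotides ligated on a target RNA are amplified and counted. In liver the 1,2-DCB set had 9 unexposed animals and 2, 4, 5, 5 and 6 animals from 1 to 250 ppm, and the 1,4-DCB set had 7 unexposed animals and 5, 4, 5, 4 and 5 from 1 to 400 ppm. Of 360 libraries, the 326 that the submitters marked as used enter the results. Library totals, in M (mega) counts, ranged from 4.34 to 46.5, with a median of 19.4 in liver. Levels are CPM, the counts scaled to a common library size, and changes are log2 ratios from edgeR with their standard error.

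The genes work in different parts of the cell. Arsa encodes arylsulfatase A, the lysosomal enzyme that removes sulfate from sulfatides. Hsd3b3 encodes a 3-beta-hydroxysteroid dehydrogenase, an enzyme family that converts hydroxysteroids to ketosteroids, and in mouse this form is known from liver and kidney. Homer2 encodes a scaffold protein that ties glutamate and calcium release receptors to their partners. Net1 encodes a guanine nucleotide exchange factor. Clpx encodes the unfoldase subunit of the mitochondrial ClpXP protease, Rbm12b1 a protein with RNA recognition motifs, and Chka choline kinase alpha, which starts phosphatidylcholine synthesis by phosphorylating choline. Dbp and Hlf, used below as a reading of the circadian clock, encode PAR bZIP transcription factors that bind D-box sites, and their RNA swings through the day in liver.

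The tissue labels were checked against marker genes in unexposed animals. Ttr stood at 51030 to 79010 CPM in liver and at no more than 828 CPM in any other tissue, Slc22a6 at 779 to 2020 CPM in kidney, Lamp3 at 836 to 1499 CPM in lung, Myl2 at 114200 to 178200 CPM in heart and Inha at 2537 to 5467 CPM in ovary. Slc22a6, Lamp3, Myl2 and Inha were each at or below 6.5 CPM in every other tissue.

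Promoters of 6 of the 7 genes, as 9 windows, were present in the RefSeq table (GRCm38.p6), which gives 250 bases before and 50 after each start site. The letters of the E-box CACGTG, bound by clock factors, of the D-box forms TTATGTAA, TTACATAA, TTATATAA and TTACGTAA, of the aryl hydrocarbon receptor core GCGTG and of the antioxidant response core TGACNNNGC were searched on both strands. Matches of different motifs may share bases. The 3 promoters that hold an E-box or a D-box are shown because Dbp and Hlf moved in the same livers, with the motif in capitals and each written 5′ to 3′ on the gene's own strand.

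Arsa promoter, chr15:89477375-89477674, minus strand, E-box in capitals: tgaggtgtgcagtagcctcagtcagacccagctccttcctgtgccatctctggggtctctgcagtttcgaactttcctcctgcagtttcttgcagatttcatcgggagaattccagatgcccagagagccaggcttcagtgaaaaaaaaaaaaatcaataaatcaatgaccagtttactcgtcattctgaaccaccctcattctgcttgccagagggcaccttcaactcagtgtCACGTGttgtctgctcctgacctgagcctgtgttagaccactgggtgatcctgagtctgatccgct

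Net1 promoter, chr13:3893532-3893831, minus strand, E-box in capitals: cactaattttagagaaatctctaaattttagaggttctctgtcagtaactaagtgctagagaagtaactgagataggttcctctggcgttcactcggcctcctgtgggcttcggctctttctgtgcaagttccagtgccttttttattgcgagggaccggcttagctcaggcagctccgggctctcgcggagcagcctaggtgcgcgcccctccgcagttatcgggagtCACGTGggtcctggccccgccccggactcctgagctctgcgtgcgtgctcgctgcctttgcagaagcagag

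Homer2 promoter, chr7:81706876-81707175, minus strand, D-box in capitals: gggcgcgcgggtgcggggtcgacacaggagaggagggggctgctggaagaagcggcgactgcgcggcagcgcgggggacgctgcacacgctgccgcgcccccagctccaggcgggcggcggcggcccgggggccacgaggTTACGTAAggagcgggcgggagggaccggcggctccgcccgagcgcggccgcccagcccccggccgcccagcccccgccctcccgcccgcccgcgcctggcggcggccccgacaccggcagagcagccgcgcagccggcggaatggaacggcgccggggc

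An E-box occurs in 7.15% of the 32851 promoters in the table and a D-box in 1.59%. The GCGTG core was found 4 times in the Clpx promoter, 2 times each in the Chka promoter and the Net1 window shown, and 1 time in the Homer2 window shown. It occurs in 32.4% of all promoters. Net1 and Homer2 each have another window, chr13:3918171-3918470 and chr7:81692916-81693215, with no E-box, D-box or GCGTG core. The antioxidant response core, in 12.4% of all promoters, was found in none of the windows of these genes. The Hsd3b3 windows held none of the letters searched. A match is a description of these letters and not a binding site.

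In the liver at 10 ppm 1,2-DCB, Arsa, Hsd3b3 and Homer2 stood above every unexposed animal and Net1, Clpx, Rbm12b1 and Chka below every one. Arsa measured 18.4, 21.4, 18.9 and 17.7 CPM in the 4 animals, against a lowest value of 3.71, a median of 6.41 and a highest of 9.38 CPM in 9 unexposed animals. Its log2 change was 1.61 ± 0.22. Hsd3b3 measured 47.2, 61.1, 53.6 and 50.2 CPM, against 27.1, 29.9 and 33.01 CPM as the lowest, median and highest unexposed value, a log2 change of 0.80 ± 0.12. Both genes were thus higher in all 4 exposed animals with no overlap. Homer2 measured 131.2, 95.6, 119.8 and 118.3 CPM, against 57.1, 74.8 and 81.7 CPM, a log2 change of 0.68 ± 0.10.

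Among the genes with lower values, Net1 measured 135.2, 153.3, 143.6 and 146.2 CPM, against 180.2, 277.8 and 309.5 CPM as the lowest, median and highest unexposed value, a log2 change of -0.86 ± 0.12. Clpx measured 92.01, 113.4, 85.6 and 75.1 CPM, against 128.6, 248.5 and 373.2 CPM, a log2 change of -1.47 ± 0.23. Chka measured 26.7, 18.6, 16.04 and 28.1 CPM, against 33.9, 65.2 and 93.8 CPM, a log2 change of -1.62 ± 0.27. The lowest unexposed values of these 3 genes all came from animal 4. Rbm12b1 measured 54.8, 52.2, 51.7 and 56.7 CPM, against 70.9, 83.5 and 94.8 CPM, a log2 change of -0.63 ± 0.10. Over all 2601 probes of this contrast 5.34% passed the edgeR test at an adjusted p under 0.05, and the count of 7 of 7 is what the choice of the genes fixed.

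Animal 203 of the 10 ppm group was marked by the submitters as too shallow and is not in these values. Its library gave 2 counts for Arsa, 5 for Hsd3b3, 12 for Homer2, 10 for Chka and 13 for Rbm12b1, too few to place the animal. Net1 with 40 counts (293.96 CPM) and Clpx with 31 counts (227.8 CPM) lay within the unexposed range. With all libraries in the fit the changes at 10 ppm ran from 1.58 for Arsa to -1.48 for Chka.

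**Figure D1:**
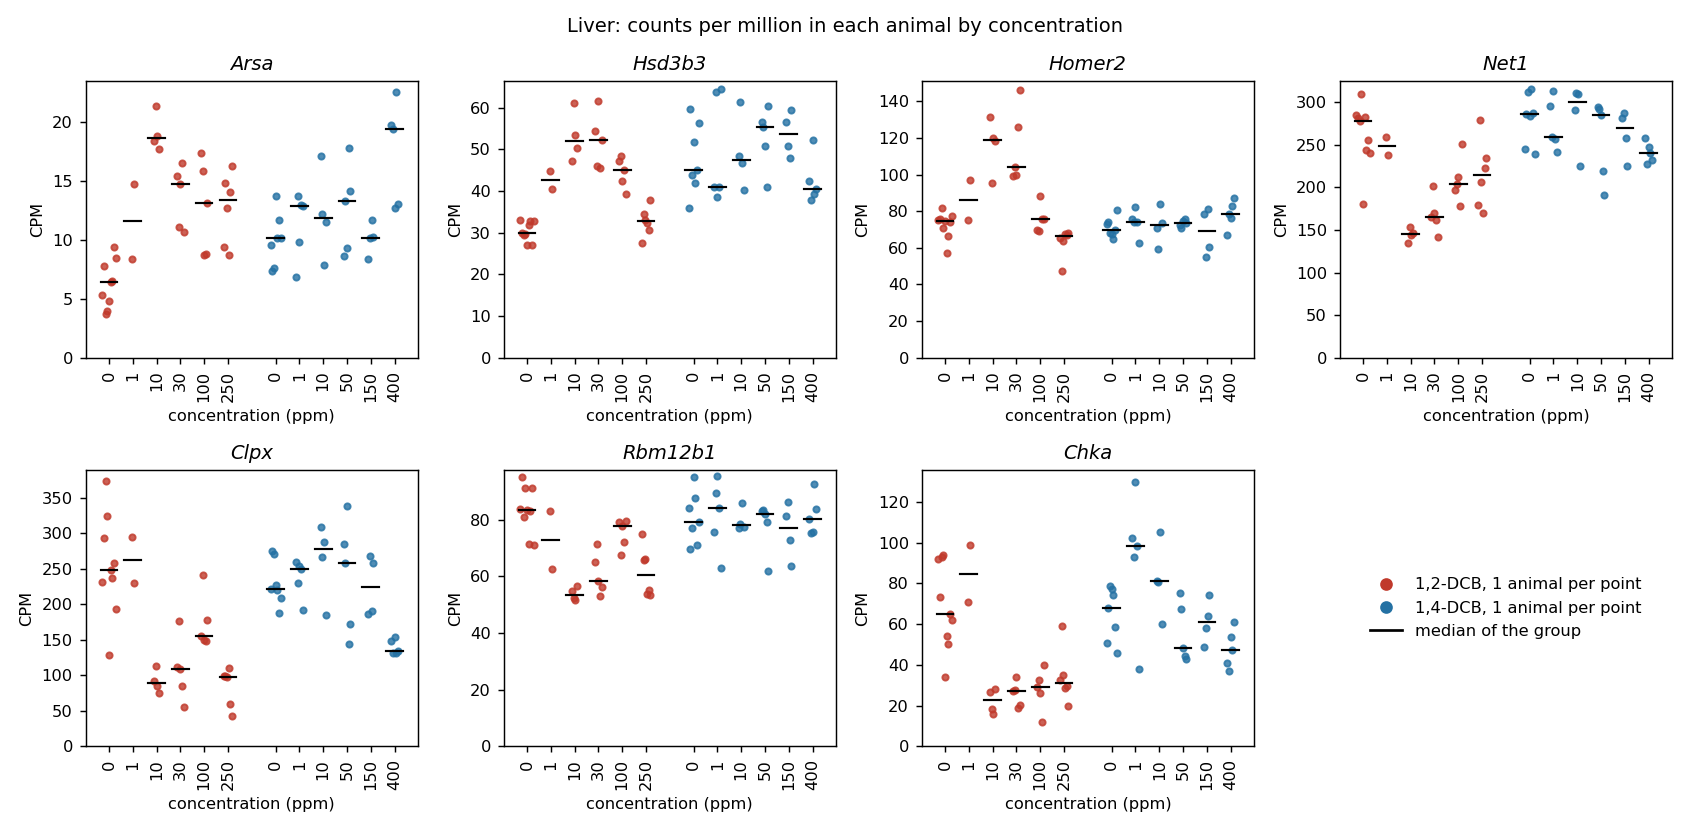
CPM in each liver (y axis, from 0) by concentration in ppm (x axis), with 1 point per animal and the median as a bar, red for 1,2-DCB and blue for 1,4-DCB. At 10 ppm 1,2-DCB the 4 points of every gene lie outside the range of the 9 unexposed animals, and at 10 ppm 1,4-DCB none of the genes shows such a gap.

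The genes parted from each other as the concentration of 1,2-DCB rose. At 1 ppm, with 2 animals, Arsa measured 8.40 and 14.8 CPM and Hsd3b3 44.7 and 40.4 CPM, the latter both above the unexposed range, and 0% of the probes passed. At 30 ppm the log2 changes from unexposed were 1.13 ± 0.21 for Arsa, 0.77 ± 0.11 for Hsd3b3, 0.66 ± 0.09 for Homer2, -0.64 ± 0.11 for Net1, -1.24 ± 0.21 for Clpx, -0.46 ± 0.09 for Rbm12b1 and -1.42 ± 0.25 for Chka, in a contrast where 11.7% of probes passed. At 100 ppm Homer2 stood at 0.06 ± 0.10 and Rbm12b1 at -0.15 ± 0.09, while Arsa was at 1.03 ± 0.21 and Chka at -1.29 ± 0.25, with 18.8% of probes called. At 250 ppm, where 49.8% of probes were called, Homer2 was at -0.20 ± 0.09, Hsd3b3 at 0.10 ± 0.11 and Net1 at -0.28 ± 0.10, while Clpx was at -1.58 ± 0.20, Arsa at 1.02 ± 0.20, Chka at -1.002 ± 0.227 and Rbm12b1 at -0.44 ± 0.09.

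Differences among the exposed groups leave the unexposed animals and the 10 ppm group out of the contrast. They were tested with edgeR over all 2601 liver probes. All liver groups share the fit and its estimate of the spread, so these p-values are not fully separate from the choice of the genes. Homer2 fell between 30 and 100 ppm, from 99.3, 103.9, 99.8, 125.7 and 146.1 CPM to 69.8, 69.03, 88.4, 75.9 and 75.6 CPM, with no overlap. Its log2 difference was -0.60 ± 0.11 (edgeR, adjusted p = 8.33e-05), and it was the 1 of 7 genes called, beside 6.23% of probes. Clpx, Rbm12b1 and Net1 missed the threshold there at 0.70 ± 0.23 (adjusted p = 0.0545), 0.31 ± 0.10 (adjusted p = 0.0718) and 0.31 ± 0.12 (adjusted p = 0.135). With all libraries in the fit 0 of 7 genes were called, and without 30 ppm animal 302 the count was 3.

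Between 30 and 250 ppm 3 of 7 genes were called, beside 44.9% of probes, a share near the background. Homer2 fell to 47.5 CPM as the lowest, 66.3 as the median and 67.9 as the highest of 6 animals, a log2 difference of -0.86 ± 0.10 (edgeR, adjusted p = 6.31e-10). Hsd3b3 measured 54.4, 46.1, 61.6, 45.5 and 52.3 CPM at 30 ppm and 27.6, 32.7 and 37.9 CPM as the lowest, median and highest at 250 ppm. The groups did not overlap, and the log2 difference was -0.67 ± 0.12 (edgeR, adjusted p = 7.05e-06). Net1 rose by 0.36 ± 0.12 (edgeR, adjusted p = 0.00874), with 4 of 6 animals above the 30 ppm range, and was at 0.26 (adjusted p = 0.0637) without 250 ppm animal 503. Arsa at -0.11 (95% interval -0.57 to 0.34) and Chka at 0.42 (-0.10 to 0.93) did not pass.

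Between 100 and 250 ppm 4 of 7 genes were called, beside 38.7% of probes. Clpx fell from 155.9, 241.8, 149.6, 149.1 and 178.2 CPM to 42.3, 98.2 and 110.8 CPM as the lowest, median and highest, with no overlap and a log2 difference of -1.04 ± 0.22 (edgeR, adjusted p = 9.76e-05). Hsd3b3 fell by 0.44 ± 0.12 on the log2 scale (edgeR, adjusted p = 0.00273), and all 6 animals were below the 100 ppm range. Rbm12b1 fell by 0.29 ± 0.10 (edgeR, adjusted p = 0.0165) and Homer2 fell by 0.26 ± 0.10 (edgeR, adjusted p = 0.042), calls that DESeq2 did not make (adjusted p = 0.0501 and 0.114). The Homer2 call ended in each fit that left out 1 library except that without 100 ppm animal 401, at -0.27 to -0.16 (adjusted p = 0.0546 to 0.248). The Rbm12b1 call ended without 100 ppm animal 405 or 250 ppm animal 506R, 507 or 508, at -0.24 to -0.21 (adjusted p = 0.0687 to 0.11). Among the 30, 100 and 250 ppm groups, Clpx was thus highest at 100 ppm by value and Hsd3b3 and Homer2 lowest at 250 ppm. Hepatocyte markers moved with the 250 ppm group, with a summed level of 84350 to 110700 CPM against 147900 to 173400 CPM at 30 ppm and 131200 to 153300 CPM at 100 ppm, and non-parenchymal and immune markers stood at 185.5 to 568.3 CPM against 166.7 to 194.6 and 173.9 to 193.8 CPM. Their part in these differences was not tested.

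The liver of the 1,4-DCB set gave a view of the same genes under the other isomer. At 10 ppm, Arsa measured 17.1, 12.3, 7.89 and 11.5 CPM and Chka 81.4, 80.6, 105.3 and 59.9 CPM, with unexposed animals from 7.37 to 13.8 CPM and from 45.7 to 78.5 CPM. The difference between the isomers' changes at 10 ppm ran from 1.33 ± 0.33 for Arsa to -1.96 ± 0.37 for Chka, and 1.58% of probes passed in it; all 7 genes are among those by choice. The unexposed animals of the sets were not alike for 2 of the genes. Hsd3b3 measured 35.9 to 59.7 CPM in the 1,4-DCB set and 27.1 to 33.01 CPM in the 1,2-DCB set, without overlap, and Arsa had medians of 10.2 and 6.41 CPM. The 10 ppm 1,2-DCB values of Hsd3b3, at 47.2 to 61.1 CPM, thus lay within or close to the unexposed range of the 1,4-DCB set.

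The unexposed livers of the 1,4-DCB set enter the isomer difference by which the genes could be chosen. The values of the genes against them are therefore a description with no test. At 1 and 10 ppm 1,4-DCB, edgeR called 0% of probes. Of all probes, 0.769% were called at 50 ppm, 5.96% at 150 ppm and 31.6% at 400 ppm. Arsa measured 7.37, 10.2 and 13.8 CPM as the lowest, median and highest of 7 unexposed animals and 19.8, 19.5, 12.7, 22.6 and 13.1 CPM at 400 ppm, a log2 change of 0.80 ± 0.21, with 3 of 5 animals above the unexposed range. Clpx measured 187.7, 222.3 and 275.3 CPM unexposed and 149.01, 131.96, 154.41, 132.02 and 134.61 CPM at 400 ppm with no overlap, a log2 change of -0.72 ± 0.21. Non-parenchymal and immune markers, 9 of 19 measured, moved there too, with a summed level of 369 to 796 CPM at 400 ppm and 176 to 257 CPM in unexposed livers, while hepatocyte markers summed to 122600 to 138400 and 148500 to 178100 CPM. Their part in these values was not tested.

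Exposed groups were therefore compared among themselves, a comparison chosen after seeing the data. These contrasts leave the unexposed livers out, but the fit and its estimate of the spread are shared with them. Between 50 and 400 ppm Clpx fell by 0.77 ± 0.23 on the log2 scale (edgeR, adjusted p = 0.00914), the 1 of 7 called beside 24.6% of probes. Without 50 ppm animal 303 it was -0.61 (adjusted p = 0.053). Between 150 and 400 ppm Arsa rose by 0.79 ± 0.25 (edgeR, adjusted p = 0.032), with all 5 animals above the 150 ppm range, the 1 of 7 called beside 10.9% of probes. That call ended in 6 of the 9 fits that left out 1 library, at 0.71 to 0.80 (adjusted p = 0.055 to 0.099), without 150 ppm animal 401, 402 or 405 or 400 ppm animal 501, 502 or 504, and with all libraries at 0.67 (adjusted p = 0.14). In bulk tissue, less RNA per cell and fewer cells of a type cannot be told apart.

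The clock genes Dbp and Hlf moved with the groups. Dbp measured 3.92, 25.98 and 95.2 CPM as the lowest, median and highest in unexposed livers of the 1,2-DCB set and 168.1 to 406.9 CPM at 10 ppm, 90.9 to 422.4 at 30 ppm, 42.1 to 207.7 at 100 ppm and 29.9 to 258.9 at 250 ppm. In the 1,4-DCB set it measured 4.89 to 72.98 CPM in unexposed livers and 4.94 to 69.7 CPM at 10 ppm. It measured 5.42 to 243.7 CPM at 50 ppm, 13.7 to 46.8 at 150 ppm and 53.5 to 94.7 at 400 ppm. Hlf was at 2.58 to 4.99 CPM in unexposed and 13.6 to 19.4 CPM in 10 ppm livers of the 1,2-DCB set. At 10 ppm 1,2-DCB Dbp was also above every unexposed animal in kidney (563 to 711.7 against 32.5 to 229.4 CPM), lung (402.1 to 536.2 against 17.3 to 151.6 CPM) and heart (223.5 to 336.9 CPM, unexposed median 56.1 CPM), tissues of the same mice. In ovary the ranges overlapped, at 256.4 to 346.4 CPM against 86.4 to 272.4 CPM unexposed. In liver the unexposed animal 4, lowest in Net1, Clpx and Chka, had the highest Dbp of the 9.

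**Figure D2:**
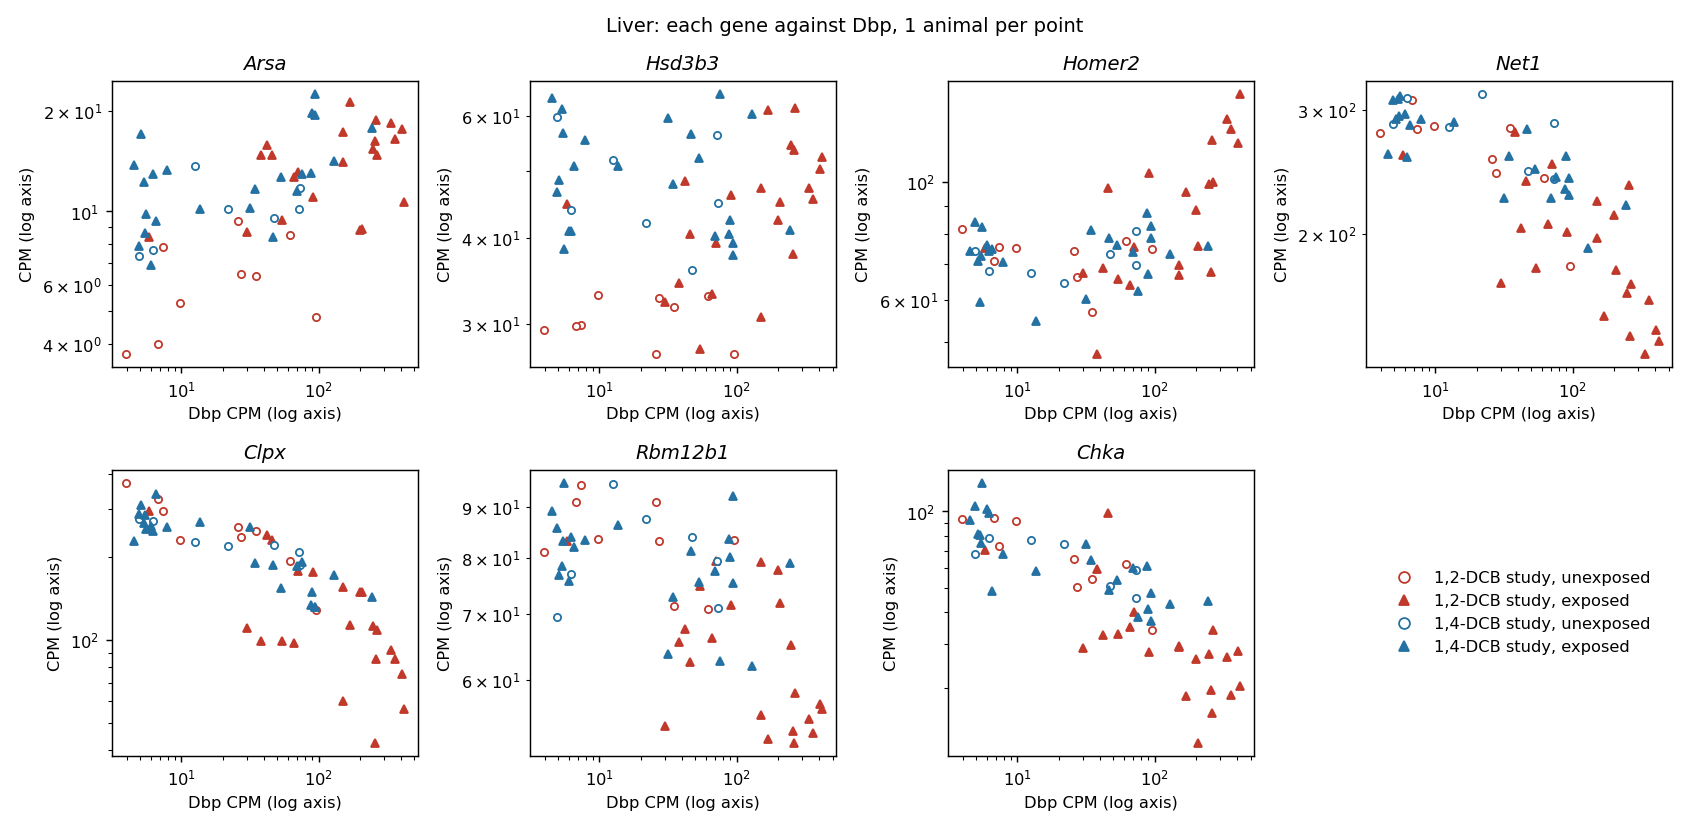
Each gene in CPM (y axis, log) against Dbp in CPM (x axis, log) in liver, with 1 point per animal, open circles unexposed, triangles exposed, red for the 1,2-DCB and blue for the 1,4-DCB set. Clpx, Chka and Net1 tend to be lower where Dbp is higher, and all 4 animals of 10 ppm 1,2-DCB have Dbp above 168 CPM. At 250 ppm 1,2-DCB, animals 501, 503, 505 and 506R have 29.95 to 65.99 CPM of Dbp, within the unexposed range. Their Clpx, at 97.3 to 110.8 CPM, is below the unexposed range, while animals 507 and 508 have more Dbp and less Clpx than these.

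The slope on Dbp was tested in the 30 livers of the 1,4-DCB set, which did not receive 1,2-DCB, with each concentration as a term. This test was chosen after seeing the data. The 30 livers include the 7 unexposed and 4 at 10 ppm that enter the isomer difference. The concentration terms take up the group means, but the spread within those groups also entered the choice. The p-values are thus not fully separate from the choice of the genes. For each doubling of Dbp, Clpx fell by 0.151 ± 0.017 on the log2 scale (edgeR, adjusted p = 5.77e-07), Chka fell by 0.162 ± 0.034 (adjusted p = 0.00247) and Net1 fell by 0.079 ± 0.016 (adjusted p = 0.00205). Arsa at 0.099 ± 0.041 (adjusted p = 0.147), Rbm12b1 at -0.035 ± 0.020 (adjusted p = 0.327), Homer2 at 0.012 ± 0.020 (adjusted p = 0.794) and Hsd3b3 at -0.014 ± 0.029 (adjusted p = 0.855) did not pass. So 3 of 7 genes were called beside 9.15% of 2547 probes.

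With Dbp as a covariate the changes at 10 ppm 1,2-DCB were 1.25 for Arsa, 0.85 for Hsd3b3, 0.61 for Homer2, -0.54 for Net1, -0.64 for Clpx, -0.44 for Rbm12b1 and -0.85 for Chka. The values of Clpx, Chka and Net1 were thus smaller by over 1.5 times, and those of Hsd3b3 and Homer2 moved by less than 0.1. Dbp did not overlap between the unexposed and 10 ppm livers, so these values cannot tell Dbp from exposure. Whether exposure or the hour of sampling moved Dbp was not tested. Hepatocyte markers, 7 of 12 measured, summed to 123900 to 178700 CPM in unexposed and 153300 to 165000 CPM in 10 ppm livers of the 1,2-DCB set, and non-parenchymal and immune markers to 166 to 534 and 174 to 208 CPM. The 5 red cell probes had a median log2 change of -0.83 at 10 ppm, and 0 of them passed.

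The 12 liver group means of log2 CPM share the unexposed animals and the scaling of the fit and include the groups on which the genes were chosen, so that their correlations are in part fixed by that choice. Pearson's r was 0.90 between Net1 and Chka, 0.90 between Net1 and Rbm12b1, 0.86 between Clpx and Chka and 0.84 between Clpx and Rbm12b1. Among the genes with higher values it was 0.49 between Arsa and Hsd3b3, 0.52 between Arsa and Homer2 and 0.42 between Hsd3b3 and Homer2. The probes most like each gene by this measure were Nfil3 and Stat5a for Clpx (r = 0.97 and 0.96), Cmpk2 and Cry1 for Chka (0.96 and 0.96), Mpzl1 and Blcap for Net1 (0.93 and 0.92), and Net1 and Blcap for Rbm12b1 (0.90 and 0.90). For Homer2 they were Bhlhe40 and Sertad1 (0.90 and 0.87), for Hsd3b3 Zfp960 and Xdh (0.88 and 0.84), and for Arsa Polg2 and Wdr7 (0.77 and 0.76).

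The genes of the same pathways were counted without the 7 genes themselves, from lists drawn up by function. At 10 ppm 1,2-DCB in liver, with 5.34% of all probes called and a median log2 change of -0.03 over them, 1 of 16 lysosome probes was higher and 1 lower, 1 of 12 steroid probes higher, 2 of 10 probes of mitochondrial proteases and chaperones higher (both of Alas1, the first enzyme of haem synthesis), and 1 of 7 probes of Homer partners and calcium signalling higher. None of 13 RNA binding and 3 phospholipid synthesis probes passed. Of 8 clock probes 2 were higher, Dbp and Hlf, and 2 lower, Nfil3 and Cry1. The median log2 change was 0.04 for the lysosome list, 0.28 for the steroid list and 0.30 for the clock list.

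Between 30 and 250 ppm 44.9% of all probes were called, with a median of 0.00, and the counts of the lists are to be read against that share. Of the lysosome probes 8 rose and 2 fell, with the protease Ctsd at 1.04 ± 0.06 (edgeR, adjusted p = 5.16e-20) and the macrophage marker Cd68 at 1.89 ± 0.24 (adjusted p = 2.23e-09). Of the steroid probes 7 fell and 0 rose, with Hsd3b2 at -2.15 ± 0.17 (adjusted p = 6.97e-16) and the oxidoreductase Hsd17b6 at -1.50 ± 0.19 (adjusted p = 1.2e-09), beside the fall of Hsd3b3. Of the 10 probes of mitochondrial proteases, chaperones and their regulators 6 fell and 0 rose, with the mitochondrial chaperone Trap1 at -0.28 ± 0.06 (adjusted p = 5.92e-05) and the nuclear transcription factors Atf4 at -0.41 ± 0.09 (adjusted p = 6.6e-05) and Atf5 at -0.52 ± 0.12 (adjusted p = 0.000279), and of the 3 phospholipid probes 2 fell, Lpin1 at -1.41 ± 0.26 (adjusted p = 1.06e-05) and Mat1a at -0.78 ± 0.20 (adjusted p = 0.000971). Of the Homer and calcium probes 1 rose and 2 fell, of the RNA binding probes 3 rose and 4 fell, of the clock probes 2 fell, and all 5 red cell probes fell, with Alas2 at -2.10 ± 0.32 (adjusted p = 1.32e-07). The list medians were 0.24 for lysosome, -0.66 for steroid and -0.28 for the list drawn up for Clpx.

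At 400 ppm 1,4-DCB against unexposed livers, with 31.6% of all probes called and a median of -0.03 over them, 2 lysosome probes rose and 3 fell, with Ctsd at 0.53 ± 0.06 (edgeR, adjusted p = 2.18e-10). Steroid probes counted 1 higher and 2 lower, with Hsd3b2 at -1.48 ± 0.17 (adjusted p = 2.18e-10), while Hsd3b3 was at -0.17 ± 0.12. Whether reads were split between the probes of Hsd3b3 and its close relatives Hsd3b1, Hsd3b2 and Hsd3b6, or between Rbm12b1 and Rbm12b2, was not tested. The levels of both genes are uncertain to that extent. Of the RNA binding probes 6 fell and 0 rose, with U2af1 at -0.56 ± 0.09 (adjusted p = 2.42e-06), while Rbm12b1 stood at 0.02 ± 0.10.

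Across unexposed tissues the genes had different homes. CPM was scaled within each tissue and not between tissues, so a few abundant probes can lower the level of all others in a tissue. The haemoglobin probe Hbb-bs, for example, had a median of 314600 CPM in unexposed lung and 8362 CPM in liver. Hsd3b3 measured 27.1 to 59.7 CPM in 16 livers and 3.09 to 12.9 CPM in 11 kidneys, with no overlap. It was at 0 counts in 20 of 20 lungs and hearts each, where 3 counts in a library would allow up to 0.209 CPM in lung and 0.424 CPM in heart, and in 18 of 20 ovaries. Those limits cover counting error only. Hsd3b3 did not pass the filter on low counts in lung, heart or ovary and was tested in liver and kidney, while the other 6 genes were tested in every tissue.

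Homer2 was highest in heart, at 140.4 to 263.3 CPM, then liver at 57.1 to 81.7 CPM with no overlap, ovary at 13.7 to 94.6 and lung at 17.3 to 28.3, which overlapped, and lowest in kidney at 5.40 to 15.2 CPM. Net1 was highest in ovary, kidney and lung with overlapping ranges and medians of 761.8, 678.6 and 513.6 CPM, lower in liver at 180.2 to 315.7 and lowest in heart at 35.5 to 83.3 CPM. Clpx was highest in liver and kidney, with medians of 234.0 and 176.7 CPM and overlapping ranges, and its median was 78.7, 68.1 and 43.2 CPM in heart, ovary and lung. Chka ranged from 76.8 to 207.8 CPM in ovary, with medians of 103.3, 102.8 and 66.5 CPM in lung, kidney and liver, each overlapping the next, and 10.5 CPM in heart, with no overlap. Rbm12b1 was highest in ovary at 260.3 to 377.0 CPM, with no overlap with lung, whose median was 123.4 CPM. Arsa was low throughout, with medians of 7.71 in liver, 6.94 in kidney, 5.10 in ovary, 4.21 in lung and 1.95 CPM in heart, each range overlapping its neighbour.

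**Figure D3:**
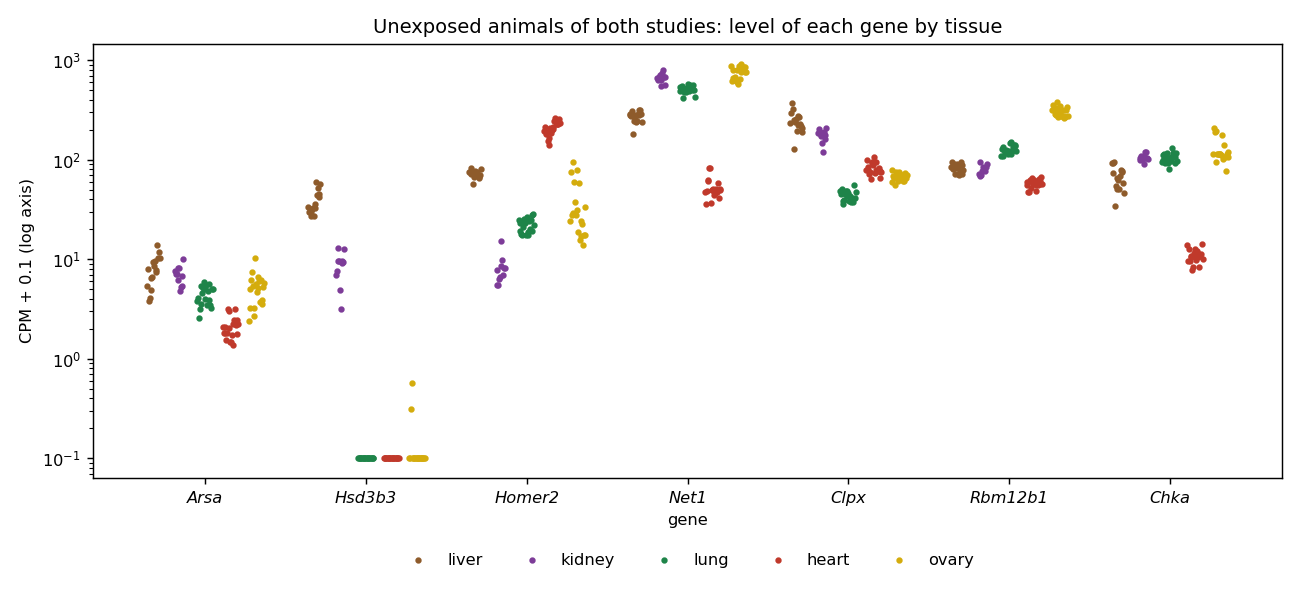
CPM plus 0.1 on a log axis (y) of each gene (x axis) in unexposed animals of both sets, with 1 point per animal and a colour per tissue. Hsd3b3 sits at the floor of the plot in lung and heart, and Homer2 is highest in heart.

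In kidney, Hsd3b3 was the gene that rose, and it did so at the top concentration of each isomer. At 250 ppm 1,2-DCB it measured 13.9, 21.4 and 25.1 CPM as the lowest, median and highest of 6 animals, against 6.92, 7.56, 12.9, 9.43 and 9.53 CPM in 5 unexposed animals. The groups did not overlap, and the log2 change was 1.12 ± 0.26 (edgeR, adjusted p = 0.00267). At 400 ppm 1,4-DCB it measured 23.1, 20.7, 13.2, 30.2 and 15.7 CPM, against 3.09, 9.08 and 12.5 CPM as the lowest, median and highest unexposed value. Again there was no overlap, and the log2 change was 1.36 ± 0.26 (edgeR, adjusted p = 0.00183). Values in between did not pass, as at 30 ppm 1,2-DCB with 1.08 ± 0.30 (adjusted p = 0.0837, 3 animals) and at 150 ppm 1,4-DCB with 0.73 ± 0.27 (adjusted p = 0.425). The top concentrations differ, so the isomers were not compared there.

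Clpx fell in kidney at 250 ppm 1,2-DCB, from 183.2, 204.6, 191.2, 175.2 and 171.1 CPM to 94.4, 137.4 and 157.8 CPM as the lowest, median and highest, by 0.47 ± 0.13 on the log2 scale (edgeR, adjusted p = 0.0117) with no overlap. So 2 of 7 genes were called there beside 11.7% of probes, and 1 of 7 at 400 ppm 1,4-DCB beside 1.03%. Dbp moved with both, from 32.5 to 229.4 CPM unexposed to 489.1 to 698.4 CPM at 250 ppm 1,2-DCB and from 43.2 to 367.5 to 498.4 to 603.3 CPM at 400 ppm 1,4-DCB. With Dbp as a covariate Hsd3b3 was at 0.46 (adjusted p = 0.425) and 0.96 (adjusted p = 0.109), and Clpx at -0.34 (adjusted p = 0.22). Dbp did not overlap between the unexposed and exposed kidneys of either set, so these values cannot tell Dbp from exposure. The summed hepatocyte list, of which kidney tubules share several genes, was 13450 to 19070 CPM in unexposed and 18200 to 25160 CPM in 250 ppm kidneys, and 9356 to 19830 and 16250 to 22890 CPM in unexposed and 400 ppm kidneys of the 1,4-DCB set. Ttr measured 336.8 to 827.6 CPM unexposed and 617.0 to 1495 CPM at 400 ppm 1,4-DCB, and 465.7 to 636.0 and 354.8 to 631.0 CPM unexposed and at 250 ppm 1,2-DCB. Apoa1 measured 16.4 to 65.8 and 5.58 to 52.9 CPM in the 1,4-DCB set and 6.86 to 35.1 and 2.19 to 53.6 CPM in the 1,2-DCB set. Cps1, an enzyme of the hepatocyte urea cycle that measured 195.0 CPM or more in unexposed livers, was at 0 to 0.343 CPM in unexposed and 0.105 to 2.28 CPM in 250 ppm kidneys, and at 0.257 to 2.25 and 0.0443 to 1.47 CPM in the 1,4-DCB set. The part of these markers in the kidney values was not tested.

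In lung, Net1 rose at 30 ppm 1,2-DCB, from 411.9, 508.2 and 548.6 CPM as the lowest, median and highest of 10 unexposed animals to 695.1, 642.4, 611.1, 605.8 and 640.6 CPM. All 5 lay above the unexposed range, and the log2 change was 0.35 ± 0.07 (edgeR, adjusted p = 0.000344), the 1 of 6 genes called beside 4.57% of probes. This was opposite in direction to its value in liver at the same concentration. At 250 ppm 3 of 6 were called beside 32.6% of probes. Homer2 rose by 0.43 ± 0.12 (edgeR, adjusted p = 0.00502), with 5 of 6 animals above the unexposed range, while Chka fell by 0.35 ± 0.12 (adjusted p = 0.0176) and Rbm12b1 fell by 0.20 ± 0.06 (adjusted p = 0.0114) on the log2 scale, with 4 of 6 animals below it for each. Without animal 506R, Chka at -0.31 (adjusted p = 0.0584) and Rbm12b1 at -0.16 (adjusted p = 0.0607) no longer passed. Dbp was at 17.3 to 151.6 CPM in unexposed lungs, 391.9 to 525.5 at 30 ppm and 145.9 to 403.0 at 250 ppm. With Dbp as a covariate in edgeR, Net1 at 30 ppm was at 0.31 (adjusted p = 0.0566). At 250 ppm Homer2 was at 0.29 (adjusted p = 0.17) and Chka at -0.37 (adjusted p = 0.0542). Dbp at 30 ppm did not overlap with the unexposed lungs, so the Net1 value cannot tell Dbp from exposure.

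In heart, Homer2 fell and Net1 rose at 150 and 400 ppm 1,4-DCB. At 150 ppm Homer2 measured 136.4, 147.2, 171.2, 235.7 and 44.6 CPM, against 203.5, 230.7 and 263.3 CPM as the lowest, median and highest of 10 unexposed animals, and Net1 measured 90.7, 69.4, 85.95, 44.8 and 182.8 CPM, against 41.03, 48.2 and 58.7 CPM. In each gene 4 of 5 animals lay outside the unexposed range of this set. Unexposed hearts of the 1,2-DCB set measured 140.4 to 213.98 CPM of Homer2 and 35.5 to 83.3 CPM of Net1. At 10 ppm 1,4-DCB, where it was not called, Homer2 measured 203.3, 217.3, 135.95, 178.6 and 199.1 CPM. The log2 changes at 150 ppm were -0.67 ± 0.18 for Homer2 (edgeR, adjusted p = 0.00469) and 0.97 ± 0.24 for Net1 (adjusted p = 0.00282), 2 of 6 genes beside 27.2% of probes. Without animal 405 they were -0.43 (adjusted p = 0.102) and 0.59 (adjusted p = 0.136). At 400 ppm they were -0.53 ± 0.18 (edgeR, adjusted p = 0.0354) and 0.70 ± 0.24 (adjusted p = 0.0415), 2 of 6 beside 13% of probes, and -0.42 (adjusted p = 0.206) and 0.47 (adjusted p = 0.305) without animal 501. Without animal 503 they were -0.47 (adjusted p = 0.161) and 0.64 (adjusted p = 0.133), and without unexposed animal 3 they were -0.51 (adjusted p = 0.0543) and 0.70 (adjusted p = 0.0551). Homer2 also missed the threshold without animal 505 (adjusted p = 0.0516), and Net1 without unexposed animal 1, 2, 5, 7 or 8 (adjusted p = 0.0507 to 0.0618). Dbp was at 27.01 to 90.5 CPM in these unexposed hearts, 53.02 to 99.3 at 150 ppm and 159.7 to 360.1 at 400 ppm. With Dbp as a covariate in edgeR, the 400 ppm changes were -0.49 for Homer2 (adjusted p = 0.15) and 0.81 for Net1 (adjusted p = 0.0805). Dbp at 400 ppm did not overlap with the unexposed hearts, so these values cannot tell Dbp from exposure.

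Heart muscle markers moved with these hearts. The summed level of Tnnt2 and Myl2, 2 of 11 markers on the list, was 250200 to 301100 CPM in unexposed hearts, 53220 to 227500 CPM at 150 ppm and 152800 to 275000 CPM at 400 ppm. Animal 405, lowest in Homer2 and highest in Net1, had 35540 CPM of Tnnt2 and 17680 CPM of Myl2, the lowest at 150 ppm. Animal 501, lowest in Homer2 and highest in Net1 at 400 ppm, had 81280 and 71530 CPM. Krt7, an epithelial keratin, was at 0 to 1.008 CPM in unexposed hearts of the 1,4-DCB set, 0.101 to 3.05 CPM at 150 ppm with animal 405 highest, and 0.39 to 1.65 CPM at 400 ppm with animals 503 and 501 highest. Net1 is low in heart and Homer2 high there compared with the other tissues, and the part of these markers in the values was not tested.

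**Figure D4:**
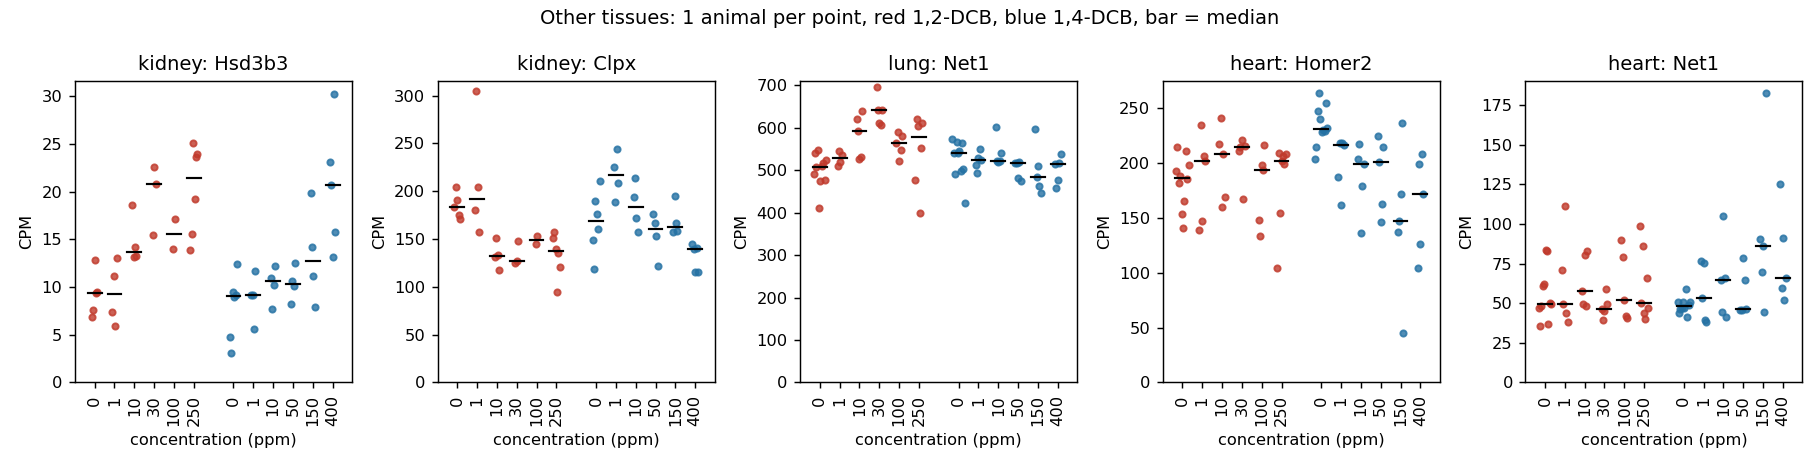
CPM in each animal (y axis, from 0) by concentration in ppm (x axis) for Hsd3b3 and Clpx in kidney, Net1 in lung, and Homer2 and Net1 in heart, with 1 point per animal, the median as a bar, red for 1,2-DCB and blue for 1,4-DCB. Kidney Hsd3b3 at 250 ppm 1,2-DCB and at 400 ppm 1,4-DCB lies above all unexposed points of its set, and 1 heart at 150 ppm 1,4-DCB stands apart in both Homer2 and Net1.

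Over all 40 exposures of kidney, lung, heart and ovary, edgeR called 11 of 250 tests of these genes, or 4.4%, beside 3.3% of all probe tests. The 11 calls are those of the 6 exposures described above. In ovary none of 6 genes passed at any concentration. Homer2 stood at -0.66 ± 0.34 (adjusted p = 0.383) at 10 ppm and -0.60 ± 0.30 (adjusted p = 0.17) at 250 ppm 1,2-DCB, beside unexposed animals that ranged from 24.4 to 94.6 CPM. The isomers were compared at the shared concentrations of 1 and 10 ppm in these 4 tissues, in 50 tests with p-values adjusted over all probes of each contrast, and 0 passed by edgeR or DESeq2, with 3 at an unadjusted p under 0.05, beside 0.207% of probes. In kidney at 10 ppm the difference was -0.61 for Clpx (95% interval -1.02 to -0.20, adjusted p = 0.288) and 0.31 for Hsd3b3 (-0.49 to 1.11, adjusted p = 0.996), and neither passed the adjustment over all probes.

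**Figure D5:**
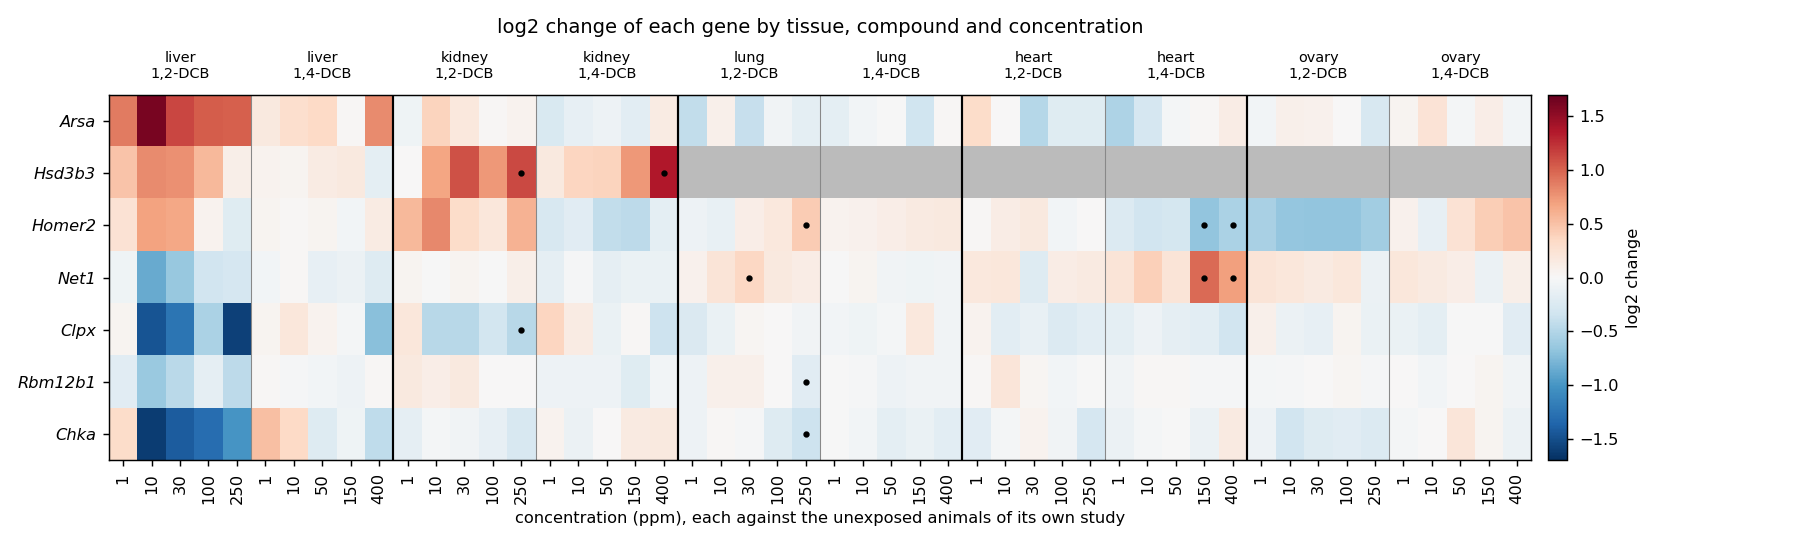
Log2 change (colour, red higher and blue lower) of each gene (rows) at each concentration in ppm (columns) against the unexposed animals of its own set, by tissue and compound; a black dot marks an adjusted p under 0.05, grey marks a gene not tested, and liver carries no dots because no test against unexposed livers is given. Colour is strongest in liver under 1,2-DCB, and outside liver dots appear in kidney, lung and heart.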

How the data were processed

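Libraries of lung, heart, liver, kidney and ovary of female mice were analysed as counts of reads per probe, deposited by the authors as 1 table. The authors aligned reads with Bowtie 1.3.1, per the submitters' processing notes; the reference is not given in the sources used here. Per the labels, 34 of 360 libraries were not used, for contamination, depth, alignment or as outliers. For 59 probes, none of them of these 7 genes, every deposited count was a multiple of a common factor. Groups are tissue, compound and concentration, and each library is 1 tissue of 1 animal. Up to 5 libraries come from each of 37 and 35 animals, so values across tissues share mice.

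The two-sided quasi-likelihood test of edgeR 4.0.16 (R 4.3.3) was run per tissue, with TMM scaling, filterByExpr over the groups of the tissue and Benjamini-Hochberg adjustment over all probes of a contrast, called under 0.05. Alternatives were DESeq2 1.42.0, all libraries, no filter on low counts, the common factors undone, 1 compound only, log2 CPM of Dbp as a covariate and each library left out (for 400 ppm 1,4-DCB in kidney, 30 ppm 1,2-DCB in lung and both heart contrasts, chosen after seeing the data). Log2 CPM for likeness used a prior count of 2, over probes with a mean of at least 10 CPM. Contrasts of 1 set share unexposed animals, as do the isomer differences. The planned tests of 1,4-DCB against unexposed livers are given without a p, since those animals enter the choice of the genes. From each list, up to 3 called probes per direction with the smallest adjusted p could be named, and the 3 most alike for likeness, of which some are printed. No source used here gives molecular identifiers, so limits from counts cover counting error only. The genes, lists and tests were chosen with earlier results of these data known. The list of genes drawn up for Net1 is not reported here.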

Additional observations from a re-analysis of the deposited data

Results flagged for a closer look

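A single library stood far from the others of its group in 6 groups of animals. Chance flags about 1 in 20 groups, which over the groups checked comes to 7.05, more than the 6 found. In liver, Net1 was at 180.2 CPM in unexposed animal 4 of the 1,2-DCB set, Chka at 38.2 CPM in animal 105 at 1 ppm 1,4-DCB, Rbm12b1 at 62.04 CPM in animal 305 at 50 ppm 1,4-DCB and Homer2 at 47.5 CPM in animal 503 at 250 ppm 1,2-DCB, each the lowest of its group. In lung, Net1 was at 411.9 CPM in the same unexposed animal 4. In heart, Chka was at 8.81 CPM in animal 502 at 400 ppm 1,4-DCB.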

How the results depend on the processing

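No paired analysis was possible because the groups compared within a tissue hold different animals.

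The 7 changes at 10 ppm 1,2-DCB in liver kept their direction in all alternatives and all fits that left out 1 library. Where Dbp does not overlap between exposed and unexposed animals, the fit with the Dbp covariate cannot tell Dbp from exposure. With the Dbp covariate no gene was called in kidney (0 and 0) or at 30 ppm in lung (0), 1 at 250 ppm in lung, 0 at 400 ppm 1,4-DCB in heart and 0 between 150 and 400 ppm 1,4-DCB in liver, while 2 were called between 30 and 100 ppm 1,2-DCB. With all libraries the counts in liver were 0 between 30 and 100 ppm and 1 between 100 and 250 ppm 1,2-DCB, and 0 between 150 and 400 ppm 1,4-DCB. Over the 34 exposures outside liver that have no call in the report the count was 3. DESeq2 called 2 between 30 and 100 ppm, 2 between 100 and 250 ppm, 2 between 150 and 400 ppm 1,4-DCB and 1 over the other exposures. With 1 compound only, the counts were 2 between 150 and 400 ppm 1,4-DCB in liver, 1 at 400 ppm in heart and 1 over the other exposures. The cause was not tested. No filter on low counts and the factors undone left every count within 1.5 times.

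With 1 library left out, the counts ranged from 1 to 3 between 30 and 100 ppm, from 2 to 3 between 30 and 250 ppm and from 2 to 4 between 100 and 250 ppm 1,2-DCB in liver. They ranged from 0 to 3 between 50 and 400 ppm and from 0 to 2 between 150 and 400 ppm 1,4-DCB, from 2 to 3 at 250 ppm in lung, and in heart from 0 to 2 at 150 ppm and from 0 to 3 at 400 ppm. Depth limits Arsa most among the 6 genes tested in every tissue, with at most 420 counts in an unexposed liver and 46 in an unexposed heart.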
